A study of Mus musculus with 8 samples.

Results

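The 10 genes described here belong to the BCL2 family, which sets the threshold for cell death at the mitochondrion. They were chosen by name as rows of the deposited count table, and all 10 were found among its 27179 genes. Of these rows, 3 are pro-survival (Bcl2, Bcl2l1 and Mcl1), 2 are effectors (Bax and Bak1) and 5 encode BH3-only proteins (Bid, Bcl2l11, Bbc3, Pmaip1 and Bmf). All 10 passed the filter on low counts, which left 13364 genes to be tested. RNA-seq had been done on mouse acute myeloid leukaemia cells carrying the MLL-AF9 fusion, marked with GFP and luciferase and sorted from bone marrow as GFP-positive cells that exclude the dead-cell dye 7AAD. The BCAA-free group (3 libraries) came from mice on a diet lacking the branched-chain amino acids leucine, isoleucine and valine, and the standard-diet group (5 libraries) from mice fed the standard amino acids. The sample names read only BCAA and AA, and the lack of BCAA is taken from the title and design of the series. Recipients in both groups were wild-type males 8 to 10 weeks old injected intravenously with the leukaemia cells, with no preconditioning. All received 5+3 chemotherapy, in which cytarabine (100 mg/kg a day) ran over 5 days and doxorubicin (3 mg/kg a day) over the first 3, and marrow was taken when the response was at its maximum. No library from mice without chemotherapy was analysed here, so the values compare diets after treatment and not the effect of the drugs. The leukaemia derives from cells of a single terminally ill mouse expanded in culture, its GFP is described as under ubiquitin control and its luciferase as under the β-actin promoter, and the unconditioned hosts keep their own blood cells.

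Pro-survival proteins of this family hold the effectors in check, and BH3-only proteins release or directly activate the effectors when a cell is stressed. Activated BAX and BAK form pores in the outer mitochondrial membrane, cytochrome c escapes, and caspases are switched on. DNA damage acts on the family largely through p53, which induces Bax, Bbc3 (PUMA) and Pmaip1 (NOXA), while FOXO factors are known to induce Bcl2l11 (BIM) and Bbc3 when growth factor signalling falls. Myeloid leukaemia cells commonly depend on MCL1 and BCL2, and BCL2 is the target of the drug venetoclax. Much of the control of these proteins lies in their turnover and binding, which RNA does not show.

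The promoters of Bax and Bbc3 are shown because these members had the smallest p in the diet comparison, and that of Bcl2l11 because it shares a FOXO motif with Bbc3. Each is the run of 250 bases before a RefSeq start site in GRCm38.p6, written 5′ to 3′ on the strand of the gene. Capitals mark matches to the p53 half-site consensus (Bax, first run), the E-box CACGTG (Bax, second run) and the FOXO motif GTAAACA on either strand (Bbc3 and Bcl2l11).
Bax, chr7:45466899-45467148, minus strand: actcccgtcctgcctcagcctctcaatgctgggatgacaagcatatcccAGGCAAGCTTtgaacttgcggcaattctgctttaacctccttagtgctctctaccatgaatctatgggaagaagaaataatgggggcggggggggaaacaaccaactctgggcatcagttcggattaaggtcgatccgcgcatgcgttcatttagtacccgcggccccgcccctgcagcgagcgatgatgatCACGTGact
Bbc3, second of 3 listed start sites, chr7:16310011-16310260, plus strand: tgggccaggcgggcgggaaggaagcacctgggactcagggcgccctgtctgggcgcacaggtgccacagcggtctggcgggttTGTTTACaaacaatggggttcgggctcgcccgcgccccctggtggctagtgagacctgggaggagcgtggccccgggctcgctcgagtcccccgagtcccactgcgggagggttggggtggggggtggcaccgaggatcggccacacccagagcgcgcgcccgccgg
Bcl2l11, first of 2 listed start sites, chr2:128125788-128126037, plus strand: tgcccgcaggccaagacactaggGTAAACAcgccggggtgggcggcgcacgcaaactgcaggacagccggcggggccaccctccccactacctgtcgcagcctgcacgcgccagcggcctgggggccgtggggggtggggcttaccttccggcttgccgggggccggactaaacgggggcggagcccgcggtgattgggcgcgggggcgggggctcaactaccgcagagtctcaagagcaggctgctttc
RefSeq windows were at hand for 9 members (16 windows), and that of Pmaip1 was not used here. On either strand, an exact p53 half-site stood in 2 of the 16 windows (1 of Bax and 1 of Bmf), beside 7.13% of 32851 windows of all genes. The FOXO motif GTAAACA stood in 2 of the 16 (1 of Bcl2l11 and 1 of Bbc3), beside 3.17% of all windows. The E-box CACGTG stood in 2 of the 16 (1 of Bax and 1 of Bbc3), beside 6.02%, and the GC box GGGCGG, left in lower case above, in 9 of the 16, from 6 members, beside 32.7%. Windows of 1 gene can overlap, and these shares were not tested against each other. No matches of different motifs overlapped in the 3 windows shown, and a match of letters is a description of the sequence only. The Bbc3 window lies inside introns of longer annotated Bbc3 transcripts, and the Bax window inside an intron of Gm45808.

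Library totals were 14851240 to 30306697 counts on the BCAA-free diet and 16588662 to 38966911 on the standard diet. All 8 listed markers of the leukaemia (Hoxa9, Hoxa10, Meis1, Ptprc, Kit, Csf1r, Mpo and Cd33) were above 0 in every library. Their summed level was lower in every BCAA-free library, at 7024.6 to 8023.1 CPM (counts scaled by TMM-adjusted library size), against 8919.8 to 11218.1 CPM on the standard diet. Most of that sum is Mpo, the gene of myeloperoxidase, which was lower in every BCAA-free library, at a mean of 6236.2 CPM, against 8797.5 CPM on the standard diet (log2 fold change -0.50, adjusted p = 0.0605 in edgeR and 0.00164 in DESeq2). The other listed leukaemia markers all overlapped between the diets, although each had a lower mean on the BCAA-free diet. For Hoxa9 the log2 fold change was -0.08 (adjusted p = 0.806 in edgeR), and for Meis1 it was -0.1 (adjusted p = 0.735 in edgeR). In edgeR none of the 8 was called. The 8 macrophage markers were mixed. They summed to 227.5 to 315.9 CPM on the BCAA-free diet and 335.3 to 422.6 CPM on the standard diet, a sum dominated by Vcam1 (mean 157.6 CPM on the BCAA-free diet, 220.7 CPM on the standard diet) and Adgre1 (74.0 CPM on the BCAA-free diet, 114.8 CPM on the standard diet). However, 5 of the 8 had a higher mean on the BCAA-free diet, and C1qa, C1qc and Cd5l were higher in every BCAA-free library, with none of the 8 called in edgeR. The summed level of 8 B-lineage markers was 38.2, 105.5 and 25.7 CPM in BCAA-free libraries 1 to 3, against 8.77 to 16.2 CPM on the standard diet, and 3 of the 5 tested members were called higher, among them Cd79a and Cd79b, with at most 1 of the 8 at 0 in any library. The 10 T and NK markers summed to 45.2 CPM in BCAA-free library 2 and to 12.3 and 7.76 CPM in the other BCAA-free libraries, against 4.88 to 13.8 CPM on the standard diet. The 7 erythroid markers found summed to 43.5 CPM in BCAA-free library 3 and to 14.4 and 4.88 CPM in the other BCAA-free libraries, against 3.65 to 12.1 CPM on the standard diet. Mature neutrophil markers summed to 1415.7 to 5782.6 CPM on the BCAA-free diet and 720.0 to 5942.0 CPM on the standard diet. The 8 stromal and endothelial markers summed to 42.6 to 63.5 CPM on the BCAA-free diet and 25.7 to 46.1 CPM on the standard diet, and Cxcl12, a chemokine of marrow stroma, was 4.54-fold higher (adjusted p = 0.0374 in edgeR, 0.00347 in DESeq2 and 0.0341 in limma-voom), with no overlap. The 5 megakaryocyte markers summed to 2.8 to 5.31 CPM on the BCAA-free diet and 0.96 to 2.96 CPM on the standard diet.

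The design sets the diets against each other after chemotherapy, and was read here for the RNA of the family in living sorted cells. No member passed in edgeR's quasi-likelihood test at an adjusted p of 0.05, against 0.756% of all tested genes (101 of 13364, with 0.217% higher and 0.539% lower). At an unadjusted p under 0.05 there were 2 members, Bax and Bbc3, both higher on the BCAA-free diet, a level that 13.5% of the 13364 genes reached in either direction and 6.21% on the higher side. DESeq2 called 1 member, Bax, against 2.85% of its genes, and limma-voom called none, against 0.479%. Of the 10 members 8 had a positive log2 fold change (BCAA-free over standard), against 52.6% of all tested genes, with a median of 0.17 beside 0.02 over all tested genes. Only Bbc3 was higher in every BCAA-free library than in every standard-diet library, and no member was lower in every one. Such a separation was seen in 8.84% of tested genes, 4.17% higher and 4.68% lower. In sorted bulk RNA, fewer cells of a type and less RNA per cell cannot be told apart.

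**Figure D1:**
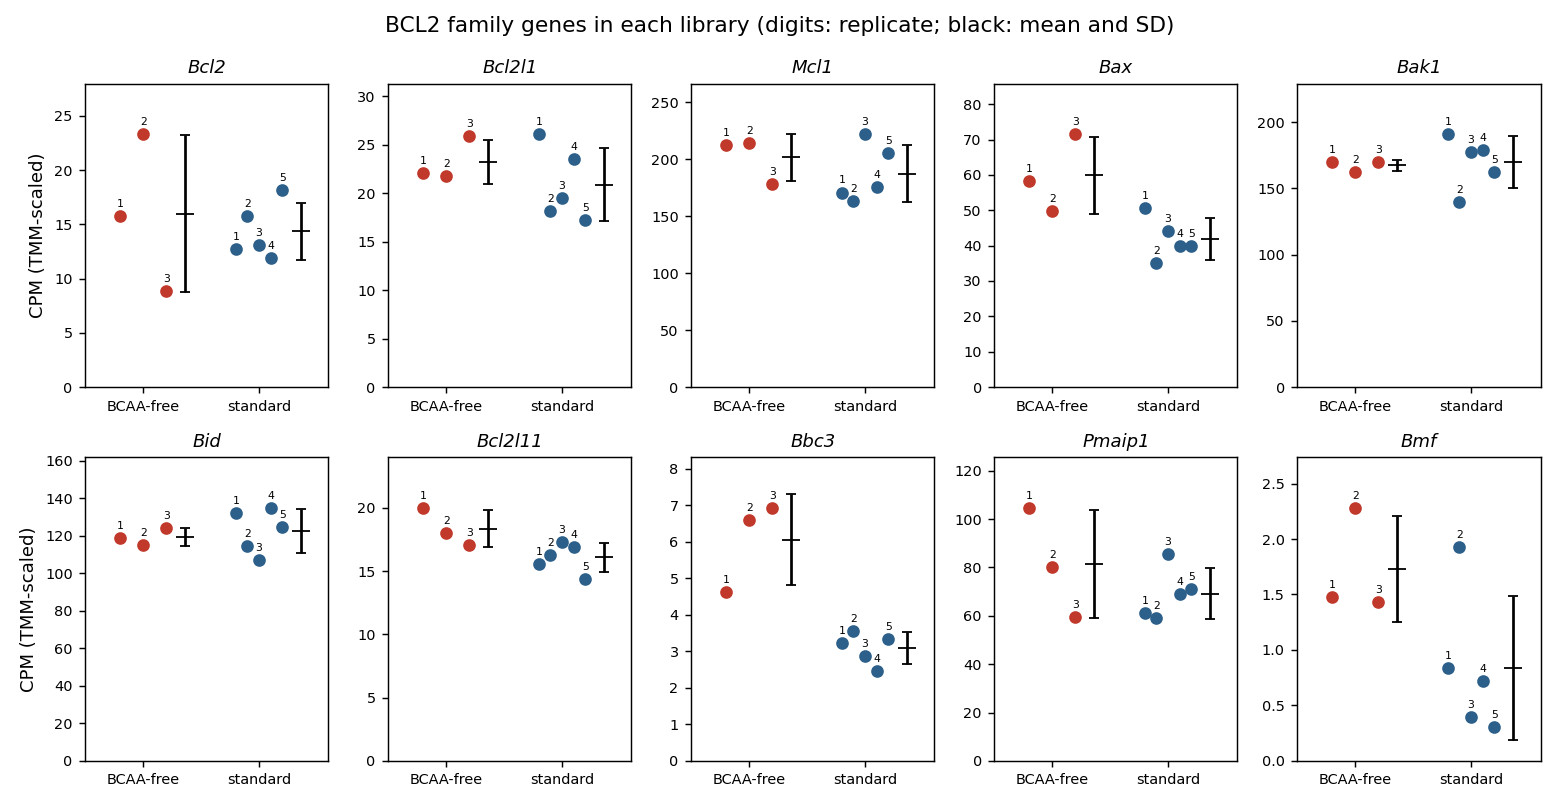
Level of each of the 10 members in every library, as TMM-scaled CPM on axes that start at 0, with BCAA-free libraries in red on the left, standard-diet libraries in blue on the right, and black bars for the mean and SD. Bbc3 is the member whose groups are fully apart (4.63 to 6.93 CPM in BCAA-free libraries, against 2.46 to 3.57 CPM in standard-diet libraries), and Bax overlaps by 1 library in each group.

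**Figure D2:**
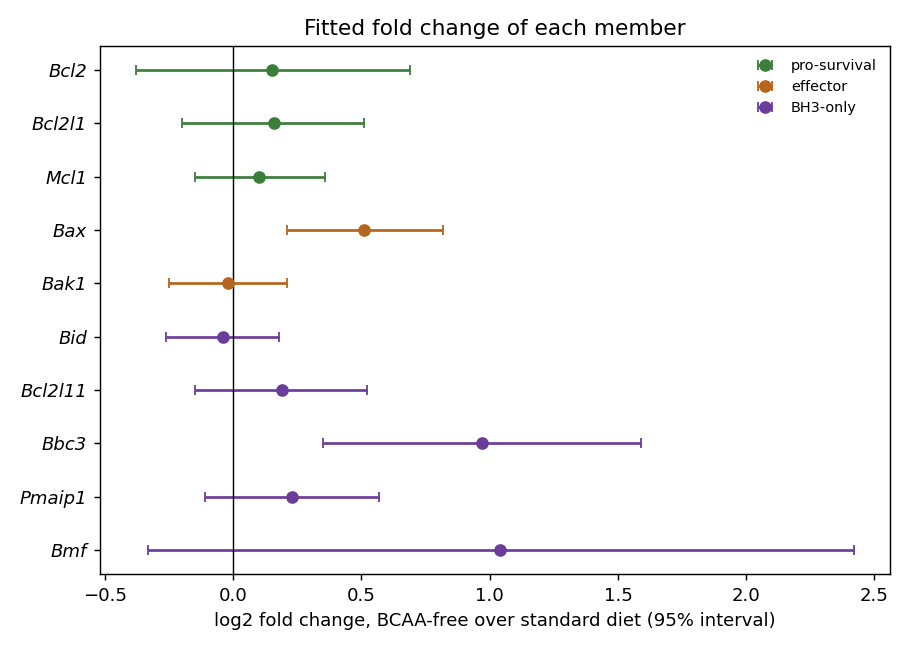
Log2 fold change of each member, BCAA-free over standard diet, from edgeR's fit to 8 libraries, with 95% intervals (horizontal bars) and colours for the roles. The intervals of Bax (0.21 to 0.82) and Bbc3 (0.35 to 1.59) lie above 0 before adjustment for the number of genes, and the other 8 include 0.

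Of the effectors, Bax was the member with the smallest p and Bak1 had a fold change close to 0. Bax encodes the effector that waits in the cytosol and moves to mitochondria on activation. It had 58.4, 49.8 and 71.5 CPM in BCAA-free libraries, against 50.6, 35.0, 44.2, 39.8 and 40.0 CPM in standard-diet libraries. The groups overlapped only in that standard-diet library 1 lay just above BCAA-free library 2. The means were 59.9 ± 10.9 CPM (SD, n = 3) on the BCAA-free diet and 41.9 ± 5.84 CPM (SD, n = 5) on the standard diet, a 1.43-fold difference (95% interval 1.15 to 1.77). Its log2 fold change was 0.51 (SE 0.15), with an unadjusted p of 0.00259 and an adjusted p of 0.118 in edgeR. DESeq2 gave Bax an adjusted p of 0.0386 and limma-voom 0.159, and over all 15 alternatives the adjusted p ran from 0.0386 to 0.594. Without BCAA-free library 3, which had the highest Bax and the highest erythroid marker sum, its log2 fold change was 0.36 (adjusted p = 0.372), and the part of the erythroid markers in it was not tested. The leukaemia marker sum, most of it Mpo, was lower, and the B-lineage sum and Cxcl12 were higher, in all 3 BCAA-free libraries. The summed stromal and endothelial markers, which include Cxcl12, overlapped between the diets. Of the macrophage markers, C1qa, C1qc and Cd5l were also higher in all 3, whereas Vcam1 and the macrophage sum lay below all standard-diet values. The part of these markers in the values of Bax and Bbc3 was not tested either. Bax (gene 12028) spans chromosome 7 from 45461695 to 45466903 in GRCm38, and 12.2% of its exon bases also belong to the gene model Gm45808 on the same strand.

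Bak1 encodes the effector that resides in the mitochondrial membrane. It had 170.0, 162.4 and 169.7 CPM in BCAA-free libraries, against 190.8, 139.7, 177.4, 179.0 and 162.4 CPM in standard-diet libraries. The BCAA-free values all lay inside the standard-diet range. The log2 fold change was -0.02 (SE 0.11, adjusted p = 0.955 in edgeR), and the 95% interval of the fold ran from 0.839 to 1.16. Bak1 (gene 12018) spans chromosome 17 from 27019812 to 27028627, and 25.5% of its exon bases are shared with Ggnbp1 on the opposite strand, whose reads could be counted with it if the counting ignored strand. Within a library, the log2 ratio of Bax to Bak1, both per kilobase of exon, was -0.93, -1.09 and -0.64 on the BCAA-free diet, against -1.30, -1.39, -1.39, -1.56 and -1.41 on the standard diet. Bak1 thus exceeded Bax in every library, by less on the BCAA-free diet, and these ratios were not tested.

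Among the BH3-only genes, Bbc3 had the smallest p. It encodes PUMA, a BH3-only protein that binds all the main pro-survival members. Bbc3 had 4.63, 6.61 and 6.93 CPM in BCAA-free libraries, against 3.23, 3.57, 2.86, 2.46 and 3.33 CPM in standard-diet libraries. Every BCAA-free value was above every standard-diet value. These levels rest on 41 to 218 counts per library, and the means were 6.06 ± 1.25 CPM on the BCAA-free diet (SD, n = 3) and 3.09 ± 0.437 CPM on the standard diet (SD, n = 5). The fitted difference was 1.96-fold (95% interval 1.28 to 3.02), a log2 fold change of 0.97 (SE 0.29) with an unadjusted p of 0.00419 and an adjusted p of 0.147 in edgeR. DESeq2 gave 0.053 and limma-voom 0.13, and none of the 15 alternatives called it (adjusted p 0.053 to 0.722). The log2 fold change stayed between 0.86 and 1.13 whichever library was left out, and it was 0.86 without BCAA-free library 3. Bbc3 (gene 170770) spans chromosome 7 from 16308398 to 16318334.

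Pmaip1 encodes NOXA, a BH3-only protein selective for MCL1, and with Bax and Bbc3 it is among the best known p53 targets of the family. Pmaip1 had 104.6, 80.1 and 59.6 CPM in BCAA-free libraries, against 61.2, 59.2, 85.7, 69.1 and 70.9 CPM in standard-diet libraries. The groups overlapped widely, with BCAA-free library 3 near the bottom of the standard-diet range, although that library was the highest for both Bax and Bbc3. Its log2 fold change was 0.23 (SE 0.16, 95% interval -0.11 to 0.57, adjusted p = 0.566 in edgeR), and it was 0.01 without BCAA-free library 1 and 0.41 without BCAA-free library 3 (adjusted p = 0.268).

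Bcl2l11 encodes BIM, an activator of BAX and BAK that is removed when growth factors signal. It had 20.0, 18.0 and 17.1 CPM in BCAA-free libraries, against 15.6, 16.3, 17.3, 16.9 and 14.4 CPM in standard-diet libraries. Here 2 of the 3 BCAA-free values lay above the whole standard-diet range. The log2 fold change was 0.19 (SE 0.16, 95% interval -0.15 to 0.52, adjusted p = 0.646 in edgeR). Bcl2l11 (gene 12125) spans chromosome 2 from 128126038 to 128162547. Counts per gene do not separate the splice forms of BIM, nor the long and short forms of Bcl2l1 and Mcl1, which act in opposite ways.

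Bid encodes the BH3-only protein that caspase-8 cleaves, and so joins the death receptor route to the mitochondrion. It had 118.8, 115.0 and 124.3 CPM in BCAA-free libraries, against 131.9, 114.7, 107.0, 134.8 and 124.8 CPM in standard-diet libraries. The groups coincided, with a log2 fold change of -0.04 (SE 0.10, 95% interval -0.26 to 0.18, adjusted p = 0.914 in edgeR). Of its exon bases, 17.7% overlap those of Bcl2l13, another family gene on the opposite strand, so reads of the pair may be shared. Bid (gene 12122) spans chromosome 6 from 120893119 to 120917062. Bmf, whose product is held on the cytoskeleton by dynein light chain until it is released, was the least expressed member. It had 1.48, 2.28 and 1.43 CPM in BCAA-free libraries, against 0.84, 1.93, 0.397, 0.72 and 0.302 CPM in standard-diet libraries, from 5 to 45 counts. All BCAA-free values were above all standard-diet values but that of library 2. The log2 fold change of 1.04 was imprecise (SE 0.65, 95% interval -0.33 to 2.42, adjusted p = 0.513 in edgeR). It ran from 0.79 without BCAA-free library 2 to 1.58 without standard-diet library 2 (adjusted p = 0.319 in edgeR). Bmf (gene 171543) spans chromosome 2 from 118528757 to 118549686.

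Each of the 3 pro-survival members overlapped between diets, and each had an interval that includes 0. Mcl1 encodes a short-lived protein on which myeloid progenitors depend. It had 212.7, 214.1 and 178.2 CPM in BCAA-free libraries, against 170.9, 163.7, 222.1, 175.4 and 205.5 CPM in standard-diet libraries. The ranges overlapped almost entirely, and the 95% interval of the fold was 0.903 to 1.28 (log2 fold change 0.10, SE 0.12, adjusted p = 0.751 in edgeR). Mcl1 (gene 17210) spans chromosome 3 from 95656944 to 95663179. Bcl2l1, the gene of BCL-XL, had 22.1, 21.8 and 25.9 CPM in BCAA-free libraries, against 26.1, 18.2, 19.5, 23.5 and 17.2 CPM in standard-diet libraries. All BCAA-free values lay inside the standard-diet range, and the 95% interval of the fold was 0.869 to 1.43 (log2 fold change 0.16, SE 0.17, adjusted p = 0.737 in edgeR). Bcl2l1 (gene 12048) spans chromosome 2 from 152758732 to 152833803.

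Bcl2, the founding member, was the most uneven of the pro-survival genes on the BCAA-free diet. It had 15.8, 23.3 and 8.88 CPM in BCAA-free libraries, against 12.7, 15.8, 13.1, 11.9 and 18.2 CPM in standard-diet libraries. BCAA-free library 2 was above every other library and BCAA-free library 3 below every other. The log2 fold change was 0.15 (SE 0.25, 95% interval -0.38 to 0.69, adjusted p = 0.843 in edgeR), and it was -0.24 without BCAA-free library 2 and 0.45 without BCAA-free library 3. BCAA-free library 2 also had the highest B-lineage sum, 105.5 CPM, and the highest T and NK sum, 45.2 CPM. BCAA-free library 3 had the lowest of both sums within the BCAA-free group, 25.7 and 7.76 CPM. Its B-lineage sum was nevertheless above every standard-diet library (8.77 to 16.2 CPM), although its Bcl2 was below all of them. Bcl2 (gene 12043) spans chromosome 1 from 106538176 to 106714290, and 6.09% of its exon bases are shared with D630008O14Rik on the opposite strand. Lymphocytes are known to express Bcl2. The part of these markers in the Bcl2 values was not tested.

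**Figure D3:**
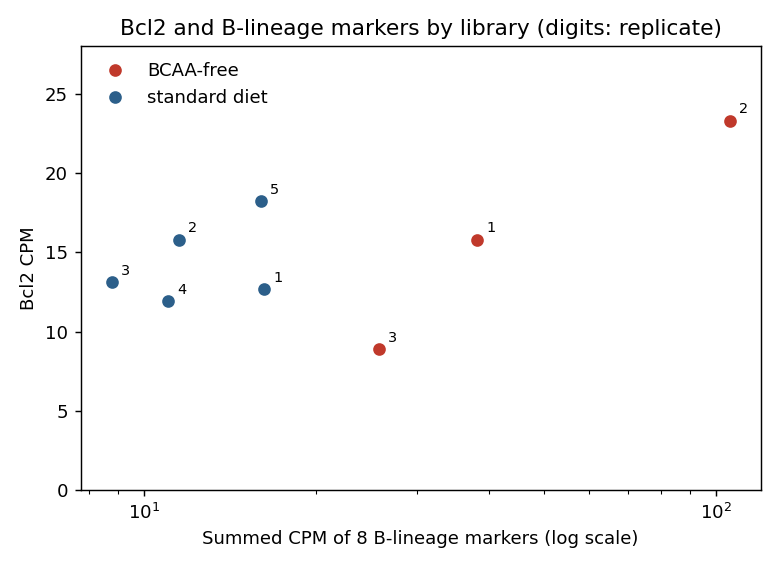
Bcl2 level (CPM, vertical axis from 0) against the summed CPM of 8 B-lineage markers (horizontal log axis) in the 3 BCAA-free (red) and 5 standard-diet (blue) libraries, with replicate numbers. BCAA-free library 2 is highest on both axes (23.3 and 105.5 CPM). BCAA-free library 3 has the lowest Bcl2 (8.88 CPM) with a B-lineage sum of 25.7 CPM, above that of every standard-diet library.

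Levels were compared between genes as CPM per kilobase of exon, over all 8 libraries. The members fell into a high and a low set. Bak1 led at 70.2 ± 6.27 CPM per kilobase (SD, n = 8), followed by Mcl1 at 56.4 ± 6.74, Bid at 34.2 ± 2.63, Bax at 30.9 ± 7.51 and Pmaip1 at 27.0 ± 5.76. The low set held Bcl2l1 at 4.75 ± 0.723 CPM per kilobase, Bcl2l11 at 2.11 ± 0.206, Bbc3 at 1.98 ± 0.803, Bcl2 at 1.63 ± 0.482 and Bmf at 0.223 ± 0.137. Bak1 was above Mcl1 and Mcl1 above Bid in all 8 libraries, and Pmaip1 was above Bcl2l1 in all 8. Bid was above Bax in 6 of 8 and Bax above Pmaip1 in 4 of 8. The mean order of Bid and Bax differed between the diets, since Bax averaged 38.0 and Bid 33.6 CPM per kilobase on the BCAA-free diet, against 26.6 for Bax and 34.5 for Bid on the standard diet. Likewise Bcl2l11 was above Bbc3 in 6 of 8 libraries, with Bbc3 at 2.85 and Bcl2l11 at 2.29 CPM per kilobase on the BCAA-free diet, against 1.45 for Bbc3 and 2.01 for Bcl2l11 on the standard diet. Bbc3 was above Bcl2 in 4 of 8 libraries, and Bcl2 above Bmf in all 8. Mcl1 was thus the most abundant pro-survival transcript on both diets, at 59.0 ± 5.95 CPM per kilobase on the BCAA-free diet (SD, n = 3) and 54.9 ± 7.33 on the standard diet (SD, n = 5). The union of all annotated exons was used as length, which understates the level of a gene whose main transcript is short.

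**Figure D4:**
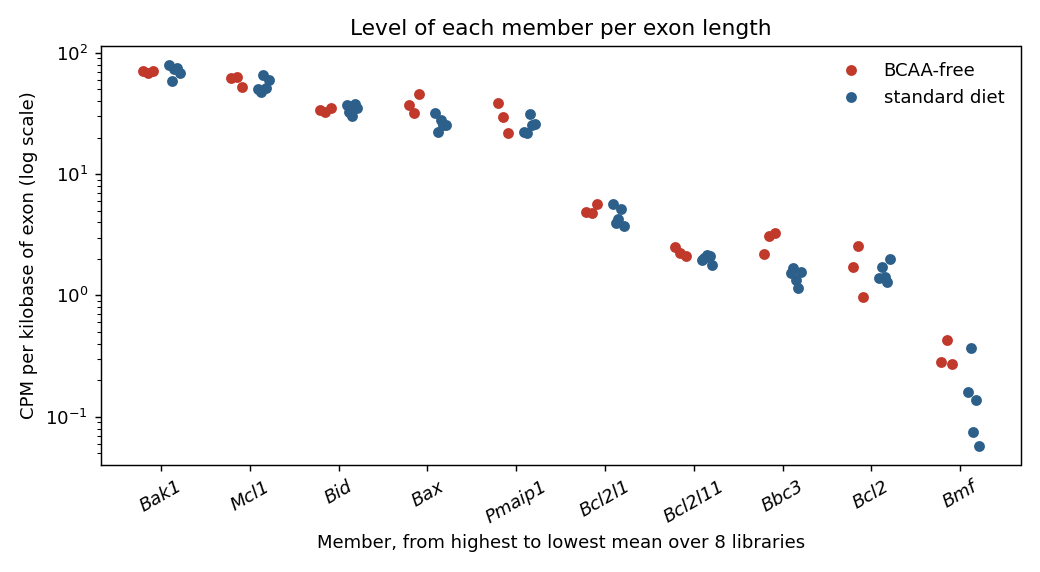
CPM per kilobase of exon (log axis) of the 10 members in each BCAA-free (red, left) and standard-diet (blue, right) library, ordered by the mean over 8 libraries. Bak1, Mcl1, Bid, Bax and Pmaip1 lie above 20 CPM per kilobase in every library, and the other 5 members below 6.

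The balance between opposing members was described as log2 ratios of CPM per kilobase within a library. The ratio of Mcl1 to Bcl2l11 was 4.69 ± 0.10 on the BCAA-free diet (SD, n = 3) and 4.77 ± 0.22 on the standard diet (SD, n = 5), and that of Mcl1 to its selective antagonist Pmaip1 was 1.02 ± 0.29 on the BCAA-free diet and 1.12 ± 0.08 on the standard diet. The ratio of Bcl2 to Bax was -4.43, -3.64 and -5.55 in BCAA-free libraries, against -4.53, -3.69, -4.29, -4.28 and -3.67 in standard-diet libraries. The groups overlapped in all 3 of these ratios, and BCAA-free library 3 had the lowest Bcl2 to Bax ratio of all 8.

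The rest of the pathway was read from 6 lists with 68 genes, of which 64 were tested. None passed in edgeR (0 of 64, against 0.756% of all tested genes), 11 reached an unadjusted p of 0.05 (6 higher and 5 lower, against 13.5%), DESeq2 called 2, among them Foxo1 as higher, and limma-voom none. The median log2 fold change was 0.04. Among regulators of the members (25 tested, 18 positive), Foxo1, a FOXO factor held out of the nucleus by AKT, had 10.1, 10.3 and 6.84 CPM in BCAA-free libraries, against 3.44, 4.60, 3.10, 5.16 and 4.41 CPM in standard-diet libraries. All BCAA-free values of Foxo1 were above all standard-diet values, with a 2.20-fold difference (log2 fold change 1.14, SE 0.27, adjusted p = 0.061 in edgeR and 0.00662 in DESeq2). B-lineage markers also stood higher in all 3 BCAA-free libraries, B cells are known to express Foxo1, and the part of those markers in it was not tested. Foxo3, its close relative, had 25.7 ± 6.05 CPM on the BCAA-free diet (SD, n = 3) and 18.4 ± 2.76 CPM on the standard diet (SD, n = 5), with overlapping groups (log2 fold change 0.48, SE 0.18, adjusted p = 0.257 in edgeR). Trp53, the gene of p53, had 147.4 to 165.0 CPM on the BCAA-free diet and 123.3 to 144.5 CPM on the standard diet (log2 fold change 0.18, adjusted p = 0.441 in edgeR), and it was chosen after its values were seen.

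Downstream of the pores, genes leaned both ways. Diablo, whose product SMAC is released from mitochondria and blocks inhibitors of caspases, had 41.3, 35.4 and 37.7 CPM in BCAA-free libraries, against 31.2, 26.4, 27.4, 27.0 and 30.7 CPM in standard-diet libraries, with no overlap (log2 fold change 0.42, SE 0.13, adjusted p = 0.168 in edgeR). Cycs, the gene of cytochrome c, had 50.7 ± 10.2 CPM on the BCAA-free diet (SD, n = 3) and 70.0 ± 19.8 CPM on the standard diet (SD, n = 5), with a log2 fold change of -0.47 (SE 0.21, adjusted p = 0.347 in edgeR). Birc5, the gene of survivin, an inhibitor-of-apoptosis protein that acts mainly in mitosis, had 87.5 ± 5.29 CPM on the BCAA-free diet (SD, n = 3) and 109.5 ± 14.0 CPM on the standard diet (SD, n = 5; log2 fold change -0.32, SE 0.12, adjusted p = 0.257 in edgeR).

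Of the other family genes, Bcl2l2, the gene of BCL-W, had a log2 fold change of 0.22 (SE 0.15, adjusted p = 0.543 in edgeR), and Bcl2a1a, 1 of several near-identical A1 genes whose reads may be divided among them, of 0.11 (SE 0.33, adjusted p = 0.922). Bnip3, which acts in the removal of mitochondria, had 9.11 ± 1.13 CPM on the BCAA-free diet (SD, n = 3) and 13.1 ± 3.08 CPM on the standard diet (SD, n = 5; log2 fold change -0.52, SE 0.22, adjusted p = 0.318 in edgeR). Bok, an effector-like member, was near the detection limit at 0.668 to 1.07 CPM on the BCAA-free diet and 0 to 0.407 CPM on the standard diet (adjusted p = 0.348 in edgeR). In the death receptor list, Ripk1, a kinase of the TNF receptor complex, had 153.0 ± 1.70 CPM on the BCAA-free diet (SD, n = 3) and 133.3 ± 5.19 CPM on the standard diet (SD, n = 5), without overlap (log2 fold change 0.20, SE 0.09, adjusted p = 0.358 in edgeR). Fas, a death receptor and p53 target, had a log2 fold change of 0.28 (SE 0.25, adjusted p = 0.659 in edgeR).

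**Figure D5:**
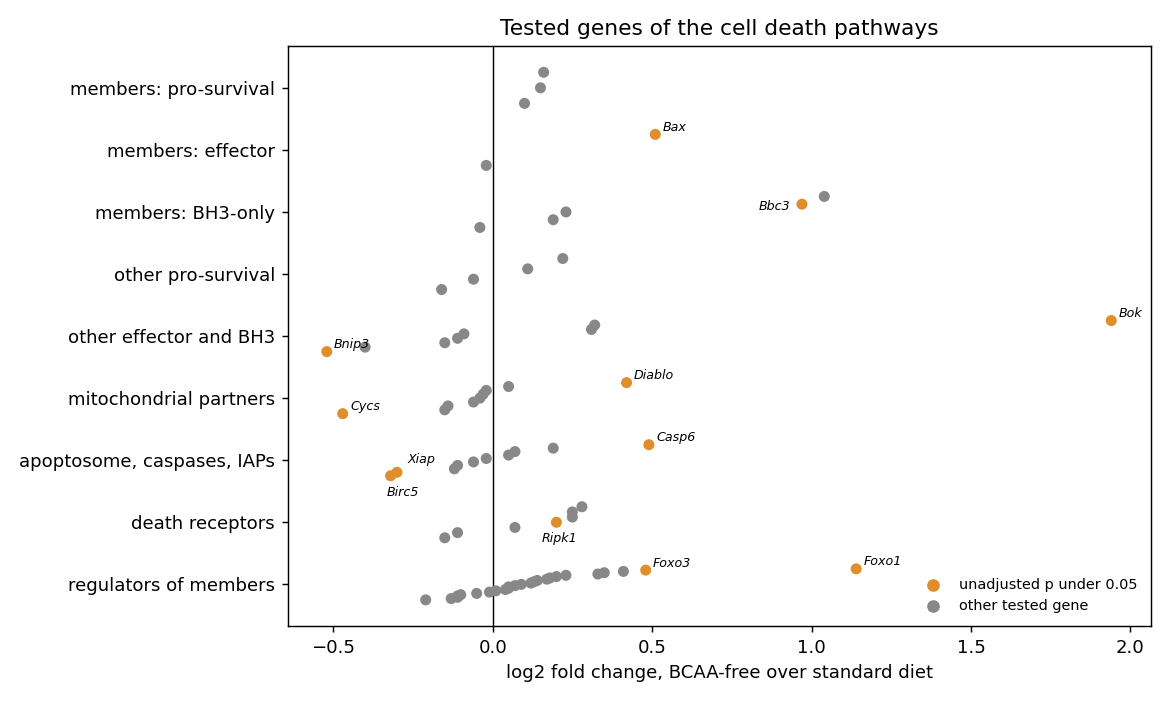
Log2 fold change (BCAA-free over standard diet, edgeR) of tested genes of the member groups and the 6 other lists, with genes at an unadjusted p under 0.05 in orange and named. No point passed after adjustment. Orange points lie on both sides of 0 in the lists of other effector and BH3 genes, of mitochondrial partners, and of apoptosome, caspase and inhibitor genes.

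The genes whose levels followed each member most closely over the 8 libraries were taken from 9024 genes whose mean reached 10 CPM, by Pearson's r of log2 CPM, as a description without a test. They were Ifi30 (0.984) and Trir (0.977) for Bax, Rnf41 (0.951) and Pi4k2a (0.946) for Bbc3, and Mrpl51 (0.955) for Bak1. For Mcl1 they were Igkc (0.965) and Mpc2 (0.949), for Bcl2 Ttc37 (0.932) and Mndal (0.918), and for Bcl2l1 Tfip11 (0.979) and Slc37a4 (0.967). For Bid they were Eefsec (0.969) and Psmb8 (0.957), for Bcl2l11 Tex261 (0.949) and Rnf6 (0.922), for Pmaip1 Sap18 (0.952) and 1110059E24Rik (0.95), and for Bmf Zfp687 (0.954) and Vps13d (0.954). No member was among the 2 nearest genes of another, but Bbc3 and Bmf, with means under 10 CPM, could not have been. The libraries share depth and cell makeup across all genes, so such values say nothing of shared function or control.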

How the data were processed

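The values are the raw counts that the authors deposited, 1 whole number for each gene in each of 8 libraries. The build is mm10, and featureCounts and Cell Ranger are named, per the submitters' processing notes, with no version or role. How reads were aligned, and whether counting used strand or multi-mapping reads, is not given in the sources used here. Overlapping and near-identical genes are therefore uncertain. Each of the 8 columns matched the description label of 1 sample, and groups came from the titles, which call the samples biological replicates. Symbols came from RefSeq GRCm38.p6 (25275 of 27179 identifiers matched, and the rest, 1.71% to 4.43% of a library's counts, stayed in the tests). Exon lengths came from GENCODE M21. No library repeats another of its own group, since pairs within a group had a chi-square of 20.2 to 66.9 per degree of freedom. Pairs across the groups were not compared in this way.

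Genes were fitted with diet alone in edgeR 4.0.16 (R 4.3.3), using TMM factors, the default filter (minimum count 10, total 15) and a robust quasi-likelihood fit. The p-values were adjusted by Benjamini-Hochberg over 13364 genes, with 0.05 as threshold. CPM use TMM-scaled library sizes, a standard error is a log2 fold change divided by the root of its F value, and intervals use the fit's degrees of freedom. Alternatives were DESeq2 1.42.0, limma-voom 3.58.1, RLE size factors, no filter, a non-robust fit, a replicate block, each library left out, and BCAA-free library 3 with standard-diet library 1 left out. The procedure was tested on simulated counts. It called, in the right direction, 15 of 67 genes set to differ 1.5-fold, 45 of 67 at 2-fold and 57 of 66 at 4-fold. Of its 120 calls 3 were false. A gene that differs 1.5-fold to 2-fold can thus go uncalled. All members were described. Of other lists, called genes were to be named, or else the 2 with the smallest p, and for each member the 2 genes nearest in pattern. A few results that these rules would name are not reported here, in the text or the plots. The members and lists were chosen with earlier results of these data known.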

Additional observations from a re-analysis of the deposited data

Results flagged for a closer look

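In the 5 standard-diet libraries, 6 of the 74 tested genes of the family and its pathway had 1 library far from the others by Dixon's criterion, which flags about 1 in 20 groups by chance, and none of the 10 members was among them. Pim1, a kinase that phosphorylates the BH3-only protein BAD, had 197.7 CPM in standard-diet library 3, against 28.1 to 51.8 CPM in the other standard-diet libraries and 61.3 to 106.0 CPM in BCAA-free libraries. Standard-diet library 2 was low for 4 genes. These were Bcl2a1a (3.01 CPM, the others 6.11 to 6.96), Bcl2l13 (72.5 CPM, the others 83.9 to 88.4), Vdac2 (261.3 CPM, the others 308.2 to 325.6) and Birc5 (85.0 CPM, the others 113.0 to 120.5). Htra2 was high in standard-diet library 1 (64.6 CPM, the others 49.9 to 53.3).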

How the results depend on the processing

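Over the 15 alternatives the sign of the fold change held for Bax, Bbc3, Bcl2l1, Bcl2l11, Mcl1, Pmaip1 and Bmf. Bax passed in DESeq2 alone (log2 fold change 0.51, adjusted p = 0.0386), which made 1 member called there and 0 elsewhere. The sign turned for Bcl2 in limma-voom (-0.02) and without BCAA-free library 2 (-0.24), for Bid with the replicate block (0.02), and for Bak1 without standard-diet library 1 (0.02) and with that library and BCAA-free library 3 left out (0.0021), all values near 0 but the second, and the cause was not tested. Leaving out 1 library gave log2 fold changes of -0.24 to 0.45 for Bcl2, -0.08 to 0.02 for Bak1, -0.08 to -0.0021 for Bid, 0.36 to 0.62 for Bax, 0.86 to 1.13 for Bbc3, 0.01 to 0.41 for Pmaip1 and 0.79 to 1.58 for Bmf, with 0 members called in each of these 8 fits. Pathway genes called numbered 2 in DESeq2, 1 with no filter (Foxo1, adjusted p = 0.0342) and 0 to 1 when 1 library was left out (Foxo1 without BCAA-free library 3, 0.042). Over all genes, 101 were called, against 0 with the replicate block, 64 in limma-voom, 384 in DESeq2, 237 without the filter and 32 to 134 with 1 library left out. The count was 52 without BCAA-free library 1, 32 without BCAA-free library 2, and 52, 55 and 53 without standard-diet libraries 2, 4 and 5. The replicate numbers were not taken as pairs, since the labels do not say that they pair animals. Deviations from the group mean in same-numbered libraries correlated at -0.1, -0.03 and -0.28 across 12724 genes. These values cannot decide the question, because means of 3 and 5 libraries tie the deviations within a group together.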

Other observations

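BCAA-free library 3, the highest for Bax and Bbc3, was also the highest for Ddit3, the gene of the stress factor CHOP, which had 9.39, 7.37 and 17.5 CPM in BCAA-free libraries, against 7.36 to 10.4 CPM in standard-diet libraries (log2 fold change 0.41, SE 0.26, adjusted p = 0.526 in edgeR). Its partner upstream, Atf4, had 146.1, 121.2 and 206.7 CPM in BCAA-free libraries, against 133.6 to 173.0 CPM in standard-diet libraries. For Atf4, BCAA-free library 3 was again the highest of all 8, and BCAA-free library 2 was the lowest. The log2 fold change of Atf4 was -0.01 (SE 0.15, adjusted p = 0.98 in edgeR). Dynll1, the gene of a dynein light chain that binds BIM, had 133.2, 211.1 and 238.6 CPM in BCAA-free libraries, against 120.4 to 175.8 CPM in standard-diet libraries (log2 fold change 0.35, SE 0.17, adjusted p = 0.405 in edgeR). Dynll2, the other listed dynein light chain gene, had a log2 fold change of 0.13 (SE 0.11, adjusted p = 0.652 in edgeR). In BCAA-free library 2 Bbc3 was nearly as high as in library 3, at 6.61 CPM, with Ddit3 at 7.37 CPM and Atf4 at 121.2 CPM. Ddit3, Atf4 and Dynll1 were chosen after their values were seen, and any link of them to Bax or Bbc3 was not tested.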
